A study of Mus musculus with 12 samples.

Results

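Reads of 3 lysosome genes, Gpnmb, Lamp1 and Ctsa, were followed through 4 rows of the deposited count tables, of 57010 rows in all, in BV2 cells, an immortalised line of mouse microglia. The rows were chosen by an estimate made from measured levels: in these tables the gene labels of many rows do not go with the levels under them, and the exons of a row, moved along the chromosome by a fitted distance, fall on exons of another gene. Gpnmb row A is ENSMUSG00000029816, labelled Gpnmb, and Gpnmb row B is ENSMUSG00000029815, labelled Malsu1. The Lamp1 row is ENSMUSG00000031446, labelled Cul4a, and the Ctsa row is ENSMUSG00000017740, labelled Slc12a5. Which gene a row holds is therefore an estimate throughout, and because mean levels entered it, the high levels of these rows are a description and support nothing.

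The recipient cells had received extracellular vesicles (EVs), membrane particles that cells release, for 24 h before RNA was taken. In control_EV the labels name control vesicles; the design text says that these and the LPS vesicles came from BV2 cells. In LPS_EV the donors were treated with LPS, the endotoxin that signals through Toll-like receptor 4. TGFB_EV and IL10_EV are labelled with the cytokines TGF-β and IL-10, for which the labels give no further detail. Each of the 4 groups had 3 libraries. All 4 groups had vesicles, so no library shows the cells without them, and no group had LPS or a cytokine without vesicles. Nothing in the labels says whether replicates were separate cultures, and every p-value therefore rests on a spread between libraries that may be technical.

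Lysosomes are acidic organelles in which microglia break down material that they engulf. LAMP1 is a heavily glycosylated protein of the lysosomal membrane and its usual marker. Cathepsin A, the product of Ctsa, is a serine carboxypeptidase that also holds β-galactosidase and the sialidase NEU1 in a stable complex. GPNMB is a glycosylated transmembrane protein of lysosomes and related vesicles, high in macrophages that are loaded with lipid or whose lysosomes are under stress. Many lysosome genes are transcribed under TFEB, TFE3 and MITF, which bind the motif CACGTG in their promoters.

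The tables give no sequence, so the stretches of each gene that the moved exons covered are shown, from GENCODE M21 on GRCm38, plus strand, 5′ to 3′. The build behind the files is not given in the sources used here. Capitals mark the bases covered. The coding exons shown are 1 or 2 per row, chosen so that each row can be told from the others by sequence: Gpnmb exon 5 (chr6:49047294-49047452) for row A, Gpnmb exon 8 (chr6:49051024-49051126) for row B, Lamp1 exon 2 (chr8:13165849-13165967) and exon 8 (chr8:13173780-13173950), and Ctsa exon 4 (chr2:164834320-164834431).
Gpnmb exon 5: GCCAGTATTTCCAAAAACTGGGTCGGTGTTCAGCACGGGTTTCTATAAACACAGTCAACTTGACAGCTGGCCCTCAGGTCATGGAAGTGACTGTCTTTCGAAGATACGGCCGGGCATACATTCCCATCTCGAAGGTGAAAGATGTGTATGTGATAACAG
Gpnmb exon 8: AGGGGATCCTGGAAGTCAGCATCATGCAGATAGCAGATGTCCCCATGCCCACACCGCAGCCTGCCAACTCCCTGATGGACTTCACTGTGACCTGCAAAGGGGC
Lamp1 exon 2: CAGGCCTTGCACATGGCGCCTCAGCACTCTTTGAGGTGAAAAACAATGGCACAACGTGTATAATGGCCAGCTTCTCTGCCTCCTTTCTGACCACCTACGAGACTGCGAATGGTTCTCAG
Lamp1 exon 8: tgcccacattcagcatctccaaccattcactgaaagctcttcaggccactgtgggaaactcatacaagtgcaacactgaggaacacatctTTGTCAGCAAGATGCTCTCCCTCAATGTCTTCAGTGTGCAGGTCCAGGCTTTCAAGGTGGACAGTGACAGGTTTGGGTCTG
Ctsa exon 4: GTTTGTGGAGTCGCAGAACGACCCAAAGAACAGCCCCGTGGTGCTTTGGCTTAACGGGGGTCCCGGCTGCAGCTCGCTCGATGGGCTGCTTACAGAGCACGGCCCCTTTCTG

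On chromosome 6 the fitted distance was -22900 bases, shared by 2618 neighbouring rows that include both Gpnmb rows. Row A then covered 453 bases of Gpnmb, all coding, in exons 5 and 6 of the 11 exons of its transcript Gpnmb-201. Only 1 of the 13 exons of row A did so, an exon of 813 bases. Without displacement row A covers Gpnmb itself, so this row names Gpnmb either way. Row B covered 193 bases, 103 of them coding in exon 8 and 90 untranslated in exon 11, and covered none of Gpnmb without displacement. Rows A and B therefore lie on separate parts of the same gene (chr6:49036546-49070929).

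On chromosome 8 the distance was 50000 bases over 295 rows, and steps from 49900 to 50100 bases scored alike. The Lamp1 row then covered 609 bases of Lamp1 (chr8:13159161-13175338), of which 241 are coding and 208 untranslated, in exons 2, 3, 7, 8 and 9 of 9. It also covered 21 bases of Grtp1, which lies on the opposite strand, with a range from 0 to 111 bases over the tied steps and 1 step beyond. On chromosome 2 the distance was -158000 bases over 1044 rows. The Ctsa row then covered 2276 bases of Ctsa (chr2:164832873-164841032). Of these, 568 are coding and 1665 untranslated in exons 4, 8, 10, 13, 14, 15 and 16 of the 16 exons of Ctsa-201. The other 43 lie in exons of other Ctsa transcripts. The same row covered 495 bases of Pltp, a lipid transfer protein gene, 458 of Zswim1, 242 of Zswim3 and 70 of Acot8, so its counts can hold reads of all 5 genes. The libraries do not mark strand, and reads of Ctsa and of Pltp, which overlap on opposite strands, cannot be told apart.

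The distances were fitted on whole stretches of rows and do not lean on these 4. With the 4 rows left out of the score, the best distance was -22900 bases on chromosome 6, -158000 on chromosome 2 and 49900 on chromosome 8, where the tied steps begin. The score (rows that met widely expressed genes add to it, and rows whose counts go against the gene or exon they meet subtract) was -20 at the fitted distance on chromosome 6, -106 at the best distance elsewhere and -128 with none. On chromosome 2 it was -26, -84 and -90, and on chromosome 8 -2, -12 and -16, so the support was least for the Lamp1 row.

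**Figure D1:**
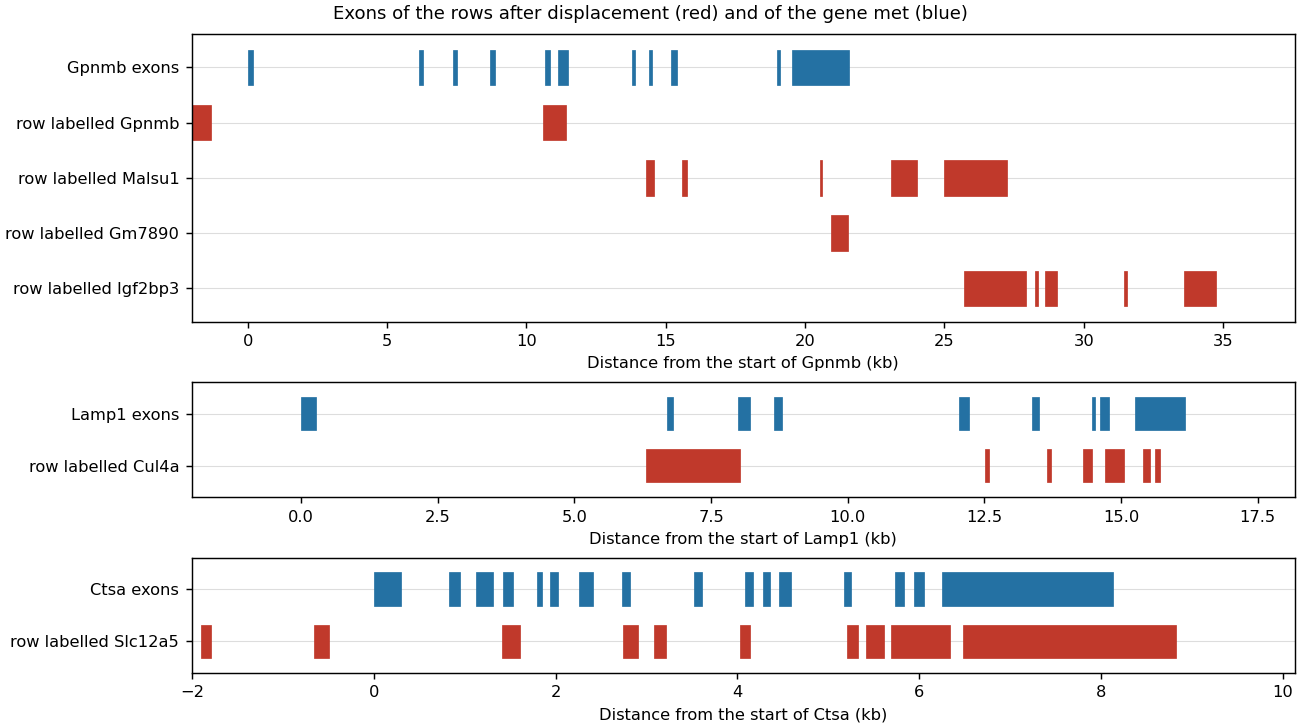
Exons of the rows after displacement (red) against exons of the transcripts Gpnmb-201, Lamp1-201 and Ctsa-201 (blue); the horizontal axes give distance from the start of each gene in kb. Rows A and B cover different exons of Gpnmb, and the rows labelled Gm7890 and Igf2bp3 lie in or beyond its last exon.

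Apart from the row labelled Gpnmb, which is row A, the rows that carry the names of these genes and of the others met were nearly empty. The row labelled Ctsa had 1 count in all 12 libraries together, those labelled Pltp, Zswim1 and Zswim3 had 0, and the row labelled Acot8 had 1. The row labelled Lamp1 had 228 counts in all, a mean of 1.59 CPM (counts brought to the same total, here after edgeR's TMM scaling). The row labelled Grtp1 had 99 counts, 0.702 CPM. The displaced exons of both met Adprhl1. A count of 0 allows up to 3 counts, which is between 0.220 and 0.286 CPM at the library totals here, and such floors cover counting error only.

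Library totals lay between 10497757 and 13647007 counts, and TMM factors, the scaling edgeR uses, between 0.977 and 1.02. Replicate pairs differed beyond counting noise in every group: chi-square divided by its degrees of freedom lay between 3.58 and 5.92 for most pairs. TGFB_EV replicate 3 stood apart from its replicates 1 and 2, at 10 and 16.9, and IL10_EV replicate 2 from its replicates 1 and 3, at 18.7 and 24.8. Values of the 4 rows in these groups, and counts of the gene lists, are given below with and without that library. Rows in stretches with a supported distance were set under the gene they covered over the most bases. By this, 6 of 11 microglia and macrophage markers had rows, and their summed level lay between 2010 and 2220 CPM in control_EV libraries. It lay between 2100 and 2120 CPM for LPS_EV, between 1740 and 2210 for TGFB_EV and between 1960 and 2410 for IL10_EV. No row met Cx3cr1, Tmem119 or Cd68, which were thus not measured. P2ry12 and Tyrobp were met only after other genes, Tyrobp by the row labelled Atp4a (780 CPM by library total, after Hcst and Nfkbid). Of the 4 neuron markers none was met by any row, so they were not measured either. Of 4 astrocyte markers 2 had rows, all at 0 counts. Rows under oligodendrocyte, endothelium and fibroblast markers summed to at most 3.5, 1.9 and 0.696 CPM, and rows in stretches without support or under another gene are not in these sums. Among those left out, the rows labelled Mbp and Zfp236 met the oligodendrocyte marker Mbp without support, at 11.6 and 22.7 CPM by library total. The row labelled Smurf2 met the endothelium marker Pecam1 after Cep95, at 14.9 CPM. The part of any of these differences in the results was not tested.

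All 4 rows had high counts in every library, and their levels lay close together over the 12 libraries. Row A held 1.40% of all counts, row B 0.982%, the Ctsa row 0.717% and the Lamp1 row 0.526%, shares of counts that are not corrected for length. Counts per library were at least 137794 for row A, 92147 for row B, 71509 for the Ctsa row and 54111 for the Lamp1 row, so that counting error was at most 0.430% of any value. The highest of the 12 libraries exceeded the lowest 1.24-fold for row B, 1.19-fold for row A, 1.11-fold for the Ctsa row and 1.09-fold for the Lamp1 row. Levels below are TMM-scaled CPM. In RNA of whole cultures, fewer cells with a transcript and less transcript per cell cannot be told apart.

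**Figure D2:**
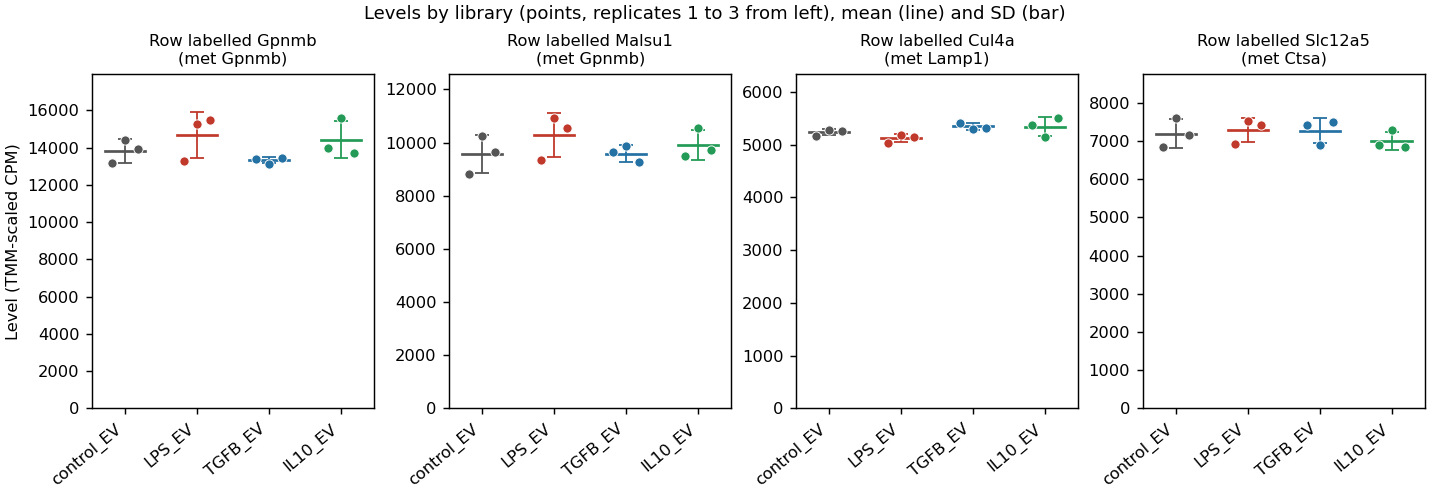
TMM-scaled CPM of the 4 rows in each library (points, replicates 1 to 3 from left to right), with the group mean (line) and SD (bar, n = 3); the vertical axes start at 0. Every row stayed within a narrow band, and the Lamp1 row spread least.

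Gpnmb row A stood at 13160, 14410 and 13910 CPM in control_EV replicates 1, 2 and 3. In LPS_EV it was 13280, 15270 and 15500 CPM. In TGFB_EV it was 13410, 13130 and 13440 CPM, the tightest group. In IL10_EV it was 13970, 15590 and 13730 CPM, where replicate 2, the library that stood apart, was the highest of all 12. All groups overlapped except TGFB_EV and IL10_EV. Group means ran from LPS_EV (14680 ± 1220 CPM, SD, n = 3) through IL10_EV (14430 ± 1010) and control_EV (13830 ± 629) to TGFB_EV (13330 ± 171), and no pair of neighbours in this order differed beyond its spread.

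Gpnmb row B stood at 8800, 10250 and 9640 CPM in control_EV. In LPS_EV it was 9357, 10920 and 10560 CPM. In TGFB_EV it was 9631, 9862 and 9260 CPM, and in IL10_EV 9476, 10560 and 9723 CPM. The lowest library was control_EV replicate 1 and the highest was LPS_EV replicate 2. All groups overlapped. Means were 10280 ± 819 CPM in LPS_EV, 9920 ± 568 in IL10_EV, 9584 ± 304 in TGFB_EV and 9563 ± 728 in control_EV, and no neighbours differed beyond their spread.

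The Lamp1 row stood at 5168, 5281 and 5266 CPM in control_EV. In LPS_EV it was 5036, 5187 and 5151 CPM. In TGFB_EV it was 5417, 5304 and 5318 CPM, and in IL10_EV 5377, 5151 and 5505 CPM. All 3 TGFB_EV libraries lay above all control_EV and all LPS_EV libraries, by small steps, while the other groups overlapped. Means were 5346 ± 61.6 CPM in TGFB_EV, 5344 ± 179 in IL10_EV, 5238 ± 61.4 in control_EV and 5125 ± 78.9 in LPS_EV. The coefficient of variation within groups was 2.02%, the 6th lowest of 137 rows with a mean of at least 1000 CPM, whose median was 4.62%. For row A it was 5.93%, for row B 6.41% and for the Ctsa row 4.45%.

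The Ctsa row stood at 6829, 7600 and 7150 CPM in control_EV. In LPS_EV it was 6926, 7516 and 7407 CPM. In TGFB_EV it was 7424, 6892 and 7492 CPM, and in IL10_EV 6893, 7274 and 6842 CPM. Every group overlapped every other. Means were 7283 ± 314 CPM in LPS_EV, 7269 ± 329 in TGFB_EV, 7193 ± 387 in control_EV and 7003 ± 236 in IL10_EV, and no neighbours differed beyond their spread. From other rows that met Pltp and Acot8 (labelled Ncoa5 and Mmp9), and taking coverage as even along a gene, Pltp would give 9.01 CPM or 0.126% of this row. Acot8 would give 23.1 CPM or 0.322% at the fitted distance, where 70 of its bases were covered. That length ranged from 0 to 196 bases over 1 step more or less, so 23.1 CPM is not an upper limit. The values for Pltp and Acot8 use CPM by library total. The row labelled Mmp9 covered 1318 bases of Snx21 beside 294 of Acot8, and all its counts were given to Acot8. Rows that met Gpnmb differed in level per covered base, at 31.0 CPM by library total in row A and 1.10 in the row labelled Gm7890. The cause was not tested, and the values for Pltp and Acot8 are therefore rough. For Zswim1 and Zswim3 no other row with counts gave such a value.

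The comparison of LPS_EV with control_EV addresses how recipient microglia respond to vesicles from LPS-treated donors. None of the 4 rows changed by edgeR's quasi-likelihood test with Benjamini-Hochberg adjustment over all rows, where 86 of 10523 rows tested, 0.817%, were called. All 4 rows passed the filter on low counts, here and in every comparison. Row A was 0.09 higher in LPS_EV on the log2 scale (SE 0.050, 95% interval -0.01 to 0.19, adjusted p = 0.540). Row B was 0.11 higher (SE 0.054, -0.004 to 0.217, adjusted p = 0.476). With both rows summed before the fit the value was 0.10 (SE 0.049, -0.01 to 0.20, adjusted p = 0.486), and the summed level was 23390 ± 1360 CPM in control_EV and 24960 ± 2010 in LPS_EV (SD, n = 3). Leaving out 1 library moved both values by over 1.5 times: row A was at 0.05 without LPS_EV replicate 3 and 0.15 without LPS_EV replicate 1 (edgeR adjusted p = 0.0925), and row B at 0.05 without control_EV replicate 1 and 0.17 without LPS_EV replicate 1 (adjusted p = 0.123). In each Gpnmb row LPS_EV replicate 1 lay among the control libraries and replicates 2 and 3 above all of them. The Lamp1 row differed by -0.03 (-0.11 to 0.05, adjusted p = 0.854) and the Ctsa row by 0.02 (-0.07 to 0.11, adjusted p = 0.924). The upper limits correspond to a rise of at most 1.14-fold for row A, 1.16-fold for row B, 1.04-fold for the Lamp1 row and 1.08-fold for the Ctsa row. Groups were apart in 0 of the 4 rows, against 16.2% of all rows tested, in either direction.

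For TGFB_EV against control_EV the test called 4 of 10524 rows, 0.038%, and none of the 4 followed here. Row A differed by -0.05 on the log2 scale (95% interval -0.14 to 0.04, adjusted p = 0.845) and by -0.06 without TGFB_EV replicate 3. Row B differed by 0.002 (-0.11 to 0.11, adjusted p = 0.998), and by 0.025 without that library. The Lamp1 row was 0.03 higher (-0.06 to 0.12, adjusted p = 0.924), and 0.03 without that library. It was the 1 row of the 4 whose groups did not overlap, against 10.9% of all rows in either direction. The Ctsa row differed by 0.01 (-0.09 to 0.12, adjusted p = 0.977), and by -0.009 without that library, a change of sign. Leaving out TGFB_EV replicate 3 raised the number of rows called from 4 to 419, still with none of these 4 among them.

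For IL10_EV against control_EV edgeR called 0 of 10613 rows (0%) and DESeq2 1, while 334 had an unadjusted p below 0.05. Row A was 0.06 higher (95% interval -0.06 to 0.18), row B 0.05 higher (-0.08 to 0.19), the Lamp1 row 0.03 higher (-0.07 to 0.13) and the Ctsa row 0.04 lower, at -0.04 (-0.15 to 0.07). The adjusted p by edgeR was 0.9996 in each. Without IL10_EV replicate 2 the difference was 0.002 for row A and 0.005 for row B. The Lamp1 row was then at 0.05 and the Ctsa row at -0.07. Groups were apart in 0 of the 4 rows, against 8.82% of all rows in either direction.

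The treatments were also compared with each other in a fit of all 12 libraries, in which edgeR called 0 of 11267 rows in each pair (0%). At an unadjusted p under 0.05 there were 1442 rows for LPS_EV against TGFB_EV, 634 for LPS_EV against IL10_EV and 842 for TGFB_EV against IL10_EV, and DESeq2 called 98, 1 and 9. In a fit of only the 6 libraries of the pair edgeR called 120, 0 and 0. The widest gap among the 4 rows was in row A between LPS_EV and TGFB_EV, 0.14 on the log2 scale (95% interval 0.02 to 0.26, a 1.10-fold difference, adjusted p = 0.334 by edgeR). Its groups overlapped, since LPS_EV replicate 1 lay among the TGFB_EV libraries. Row B differed by 0.10 (-0.03 to 0.23) in that pair, with values from 0.05 without LPS_EV replicate 2 to 0.16 without LPS_EV replicate 1. The Lamp1 row had a difference of -0.06 (-0.15 to 0.02, adjusted p = 0.546), and its groups did not overlap, as in 19.4% of all rows. Without TGFB_EV replicate 3 row A was at 0.14, row B at 0.07, the Lamp1 row at -0.07 and the Ctsa row at 0.02. Between LPS_EV and IL10_EV the 4 rows differed by -0.06 to 0.06 and all overlapped, where 10.9% of all rows did not. Without IL10_EV replicate 2 row A was at 0.08, row B at 0.09, the Lamp1 row at -0.09 and the Ctsa row at 0.08. Between TGFB_EV and IL10_EV row A differed by -0.11 (-0.24 to 0.01, adjusted p = 0.679) without overlap, as in 10.3% of all rows, and by -0.06 without IL10_EV replicate 2 and -0.12 without TGFB_EV replicate 3. Row B differed by -0.05 there, by -0.004 without the first and -0.02 without the second of these libraries. Comparisons with control_EV share its 3 libraries, and pairs of treatments share libraries with them.

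**Figure D3:**
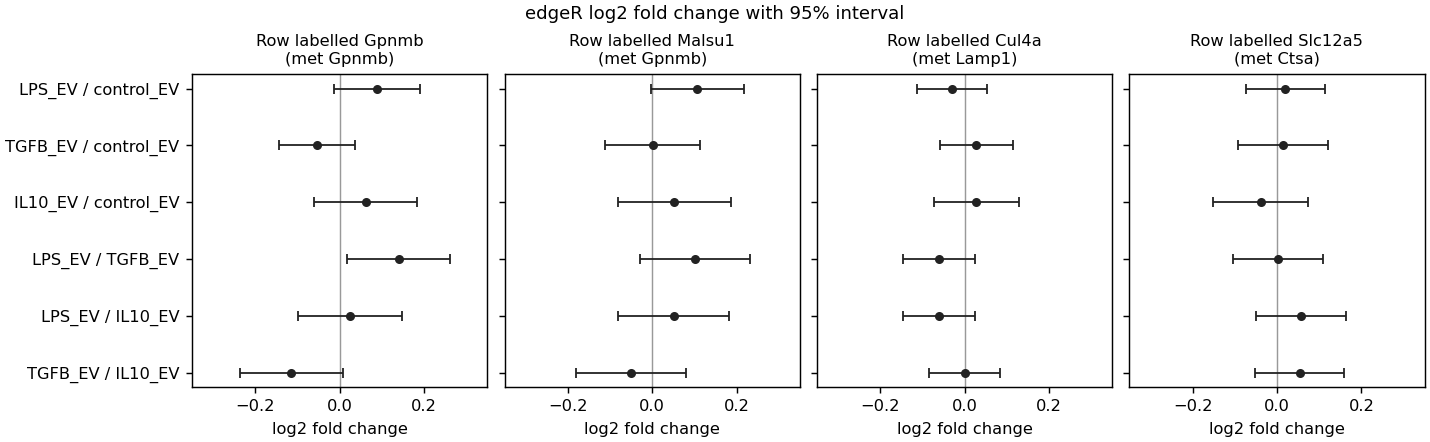
edgeR log2 fold changes of the 4 rows (first group over second) with 95% intervals, for the 3 comparisons with control_EV and the 3 pairs of treatments. Of the 24 intervals 1 excludes 0, row A for LPS_EV over TGFB_EV (0.02 to 0.26, adjusted p = 0.334).

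Rows A and B, which cover separate exons of Gpnmb and share no bases of it, varied together over the 12 libraries. Pearson's r of their log2 CPM was 0.867 (permutation p = 0.00046, adjusted p = 0.0028 over the 6 pairs of rows) and Spearman's rho 0.704 (permutation p = 0.013, adjusted p = 0.076). Without the 2 libraries in which row A was farthest from its median, IL10_EV replicate 2 and LPS_EV replicate 3, r was 0.828 and rho 0.527 (permutation p = 0.008 and 0.12, n = 10). As deviations from group means r was 0.871. Row A made up between 57.1% and 59.9% of the sum in every library, and the group means of this share lay between 58.2% and 59.2%. Of the other 5 pairs of rows none had an adjusted permutation p under 0.05. The Ctsa row had r = 0.539 with row A and 0.573 with row B (permutation p = 0.076 and 0.054, adjusted p = 0.15 for both), and 0.832 and 0.704 as deviations from group means. The Lamp1 row had r between -0.301 and -0.077 with the others, with permutation p between 0.34 and 0.81. The rows of 1 library share its depth and composition. The permutations moved libraries across groups, and no p-value was made for the deviations from group means.

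**Figure D4:**
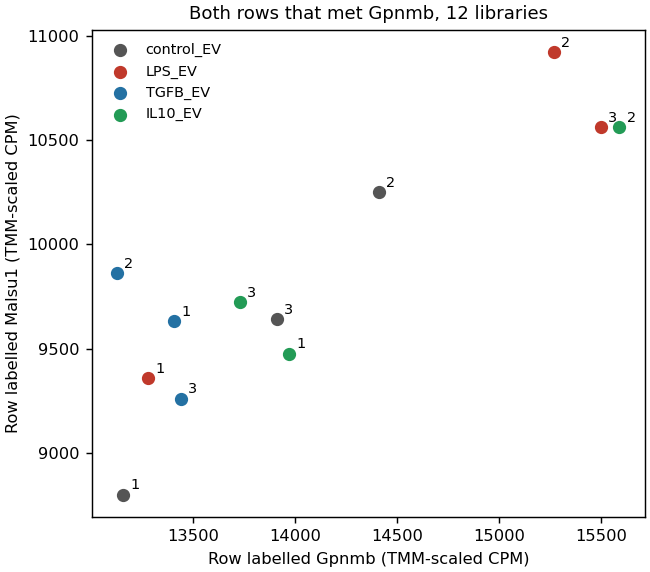
Level of Gpnmb row B against row A in TMM-scaled CPM, 1 point per library, coloured by group and numbered by replicate; the axes do not start at 0. LPS_EV replicates 2 and 3 and IL10_EV replicate 2 are high in both rows, and control_EV replicate 1 is low in both.

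A further pair of rows met Gpnmb and can be set beside these. The row labelled Gm7890 covered 601 untranslated bases of its exon 11 and had 661 CPM, with log2 differences from control_EV of -0.05 in LPS_EV, -0.01 in TGFB_EV and 0.00 in IL10_EV. The row labelled Igf2bp3 covered 719 bases of an exon that Gpnmb-201 lacks, and also Malsu1 and Igf2bp3. It had 572 CPM and differed by -0.17 in LPS_EV (edgeR adjusted p = 0.134), 0.00 in TGFB_EV and -0.11 in IL10_EV. In LPS_EV these further rows were thus lower than in control_EV, while rows A and B were 0.09 and 0.11 higher. In IL10_EV the row labelled Igf2bp3 was lower too, while rows A and B were 0.06 and 0.05 higher. The cause was not tested. Neither the row labelled Gm7890 nor that labelled Igf2bp3 passed the test in any comparison with control_EV.

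The rows most like each of the 4, among 4006 rows of at least 20 CPM, were taken by Pearson's r of log2 CPM over the 12 libraries, a description with no test. Row A was most like the rows that met Siglec1 (labelled Mavs, r = 0.936), Oas3 (labelled Cfap73, 0.921) and Slc7a11 (own label, 0.903). SIGLEC1 is a sialic acid receptor of macrophages, OAS3 an interferon-induced antiviral enzyme and SLC7A11 a cystine transporter. For row B, 2 of the 3 are given, the rows that met Nrp2 (own label, r = 0.871) and Rusc2 with Fam166b (labelled Rusc2, 0.870). The 2 Gpnmb rows had r = 0.867 with each other, and neither was among the 3 rows most like the other. The Lamp1 row was most like the rows that met Rpl7l1, Cnpy3 and Ptcra (labelled Ttbk1, 0.933), Vps50 (0.911) and Oit1 (0.895). The Ctsa row was most like those that met Pabpc1 (0.828), Dync1h1 (labelled Hsp90aa1, 0.804) and Retsat with Tgoln1 (labelled Tcf7l1, 0.803). Lamp1 and Ctsa were thus not among each other's most similar rows.

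Other lysosome genes were followed by the gene that a row's displaced exons met, 1 row per gene. In 5 lists of lysosomal proteases, membrane proteins, glycosidases and sulfatases, lipid handling and vacuolar ATPase there were 87 genes, of which 45 could be tested, including Lamp1 and Ctsa. In LPS_EV, TGFB_EV and IL10_EV against control_EV 0 of the 45 rose and 0 fell by edgeR with adjustment over all rows. Of all rows tested, 0.817%, 0.038% and 0% were called, so few or no calls among 45 would be usual for any rows. At an unadjusted p under 0.05 there were 8, 5 and 2 of the 45, beside 11.2%, 6.23% and 3.15% of all rows tested. The median log2 differences were -0.04, -0.02 and -0.03, where the medians of all rows tested were 0.00. Without Lamp1 and Ctsa the 43 others had medians of -0.05, -0.02 and -0.03. In TGFB_EV these counts rested on 1 library: without TGFB_EV replicate 3, 2 of the 45 rose and 4 fell by edgeR, where 3.89% of all rows were called. Those called higher were Cd63, a tetraspanin of late endosomes (log2 difference 0.15, adjusted p = 0.0460), and Atp6v1c1, a vacuolar ATPase subunit (0.16, adjusted p = 0.0448). Those called lower were the ATPase subunit gene Atp6v0d2 (-0.38, adjusted p = 0.0002005), the protease gene Ctsf (-0.35, adjusted p = 0.0247), Ppt1, a thioesterase (-0.34, adjusted p = 0.0211), and Naglu, a glycosidase (-0.23, adjusted p = 0.0270). Without IL10_EV replicate 2, 0 of the 45 were called in IL10_EV, beside 0.0185% of all rows. Then 6 of the 45 had an unadjusted p under 0.05, beside 7.54% of all rows, and the median was 0.01.

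Among the 8 proteases and cofactors tested of 17, the row that met Ctsl, a cysteine protease, was at 1690 ± 72.3 CPM in control_EV and 1490 ± 42.1 in LPS_EV (SD, n = 3). Its log2 difference was -0.18 (SE 0.05, adjusted p = 0.0669), the lowest adjusted p of the 45 in any comparison with control_EV. Rows that met Ctsz and Ctss, also cysteine proteases, had means of 2140 and 1200 CPM over all libraries and log2 differences in LPS_EV of 0.00 and 0.12. Of 12 membrane proteins tested of 20, Cd63 differed by -0.09 in LPS_EV and 0.10 in TGFB_EV, and Npc1, which exports cholesterol, by -0.11 in LPS_EV. With all libraries neither passed the test. The list's medians were -0.05 in LPS_EV, 0.02 in TGFB_EV and -0.05 in IL10_EV.

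Neu1, whose product is bound by cathepsin A, was met by the row labelled Tnxb together with 3 other genes, at 1320 ± 35.8 CPM in control_EV and 1330 ± 49.6 in LPS_EV (log2 difference 0.01). Glb1, the β-galactosidase of that complex, stood at 259 ± 6.76 and 252 ± 11.6 CPM (-0.04). Hexa and Gusb, glycosidases, differed by 0.06 and -0.07 in LPS_EV. With all libraries none of the 11 glycosidases and sulfatases tested of 22 passed the test. In lipid handling 4 of 12 were tested, and Lipa, the lysosomal acid lipase, had the largest LPS_EV value, 0.15 (adjusted p = 0.374). Asah1 and Ppt1 differed by -0.03 and -0.08. Of 16 vacuolar ATPase genes, which acidify the lysosome, 10 were tested, with a median of -0.07 in LPS_EV. The subunit genes Atp6v1c1, Atp6v1a and Atp6v0d2 differed by -0.07, -0.11 and -0.04 there, and Atp6v0d2 by -0.23 in TGFB_EV and -0.21 in IL10_EV, short of the threshold with all libraries (edgeR adjusted p = 0.789 and 0.9996). Without IL10_EV replicate 2 the latter was also -0.21.

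Of 11 genes of the MiT/TFE factors and their control 6 were tested and 0 passed in any comparison with control_EV, nor without either library that stood apart. Tfe3 stood at 95.5 ± 7.02 CPM in control_EV and 84.4 ± 7.84 CPM in LPS_EV, with 96.7 ± 7.84 for TGFB_EV and 86.0 ± 0.884 for IL10_EV (SD, n = 3). Mitf was at 8.62 ± 0.704 CPM in control_EV and 9.67 ± 0.648 in LPS_EV. Rragd, a GTPase gene that is itself a target of these factors, differed by -0.06 in LPS_EV, and Fnip1 by -0.01. Of 15 genes that go with Gpnmb in lipid-laden macrophages 5 were tested, row A included, and 0 passed, with or without those libraries. Of all rows tested, 0.817% passed in LPS_EV, 0.038% in TGFB_EV and 0% in IL10_EV against control_EV. Without those libraries it was 3.89% in TGFB_EV and 0.0185% in IL10_EV. Itgax, an integrin chain, was at 601 ± 40.3 CPM in control_EV and 676 ± 6.61 in LPS_EV (0.17, adjusted p = 0.143), and Cd9, a tetraspanin, differed by -0.06.

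**Figure D5:**
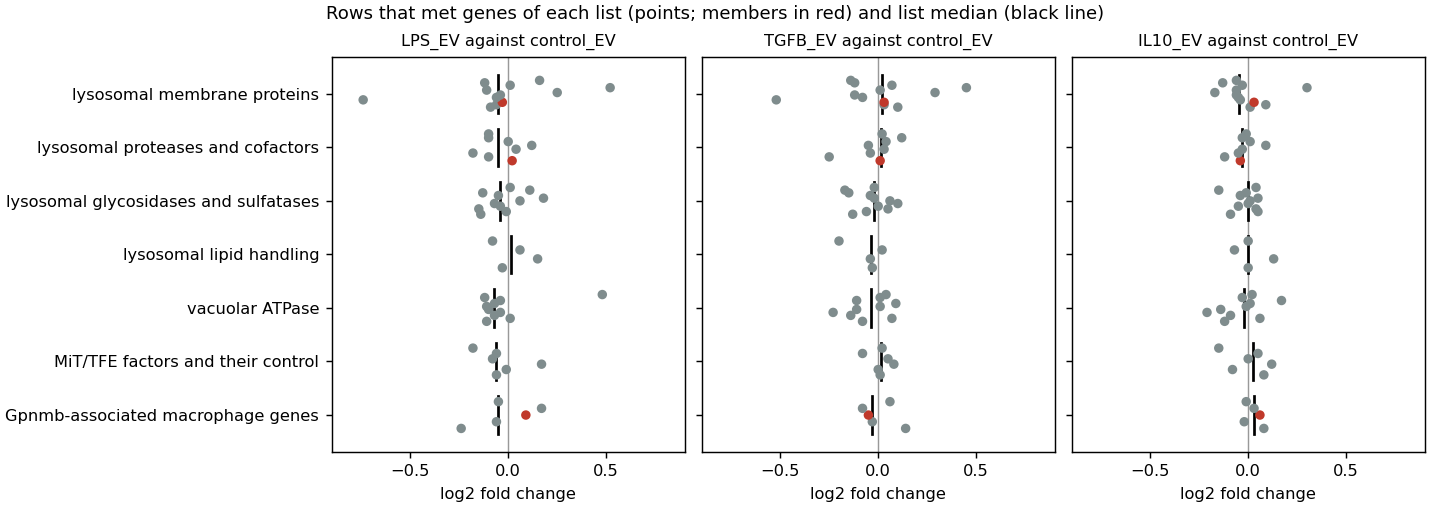
edgeR log2 fold changes against control_EV of rows whose displaced exons met genes of 7 lists, 1 point per gene, with Gpnmb row A, the Lamp1 row and the Ctsa row in red and the list median as a black line. With all libraries no point passed the test, and the points farthest from 0 belong to rows with a mean of at most 4.96 CPM (Laptm4a, Ostm1, Atp6v1h, Mfsd8, Cd44) in LPS_EV.

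The promoters were searched for CACGTG, which reads the same on both strands, in the 250 bases before each RefSeq start on GRCm38.p6. It was present in 6.02% of 32851 promoters. The Lamp1 promoter held 4 copies, 61, 45, 28 and 15 bases before the start, a number that 7 of all promoters reached. Ctsa held 1 copy before 1 of its 2 RefSeq starts, and none before the other. That start lies inside the gene, and the window shown overlaps 3 annotated exons of transcripts in GENCODE M21, while the Lamp1 window overlaps none. The Gpnmb promoter held none, which says only that these letters are not in that window. The windows with copies are shown with the motif in capitals, for Lamp1 chr8:13159091-13159160 and for Ctsa chr2:164833752-164833772, plus strand. They were chosen because they hold the motif, and no link of copies to levels or spread was tested.
Lamp1 promoter: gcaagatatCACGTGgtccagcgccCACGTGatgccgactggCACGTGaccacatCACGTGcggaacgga
Ctsa, before the inner start: gcaaactgtCACGTGatgcag
These matches are a description of the sequence.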

How the data were processed

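RNA from 12 libraries was made into cDNA with SMART-Seq v4 and sequenced after 18 PCR cycles, per the labels' protocols. The 4 deposited tables hold raw counts in whole numbers, 1 row per Ensembl gene ID and 6 libraries each. Since 2 tables were identical, 3 entered the work, and all carry the same control_EV columns. DESeq2 is named in the submitters' processing notes; the aligner, the counter and the build are not given in the sources used. Groups and replicate numbers come from the sample titles.

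Exons of 50445 rows (GENCODE M21) were moved along their chromosome in steps of 100 bases, up to 1000 kb, and each change of distance cost 15. Rows of at least 20 CPM that met 1 of 404 widely expressed genes were rewarded, and rows under 1 CPM that met one, or of at least 5 CPM that met no protein-coding exon, were penalised, without the group labels. This gave 73 stretches, 66 of them supported by a score at least 5 above any more distant position, with 97.2% of the rows placed. The fit was tested on simulated data with even levels along each gene and a change of distance at the middle of the chromosome. These settings are simpler than the data, and the outcome is not given here.

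The test was the quasi-likelihood one of edgeR 4.0.16 (R 4.3.3) after TMM scaling and filterByExpr at 10 counts, with Benjamini-Hochberg adjusted p under 0.05 over all rows as the call. It was tested on simulated data too, with an outcome that is likewise not given here. Comparisons with control_EV used their own 6 libraries, and pairs of treatments all 12. Intervals are at 95%. Correlations used 100000 permutations. Alternatives were DESeq2 1.42.0, its size factors, no filter, a filter of at least 50 counts in at least 3 libraries, all 12 libraries, only the 6 libraries of a pair, a replicate block, the Gpnmb rows summed and each library left out. The fits of the gene lists without TGFB_EV replicate 3 or IL10_EV replicate 2 were chosen after seeing the data, as were the rows named from them.

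The 4 rows, the gene lists and the tests were chosen with earlier results of these data known. The rows named beside them were, for each of the 4, the 3 with the highest r among rows of at least 20 CPM with a gene name, the rows labelled with the genes concerned, and from each list up to 3 rows with the highest mean; Glb1, Mitf, Itgax and the low rows named beside the plot of the lists were added after their values were seen. Of these rows, 1 is not reported here. Markers of 6 cell types were summed by library.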

Additional observations from a re-analysis of the deposited data

How the results depend on the processing

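Of 282 values of the 4 rows under the alternatives, 1 passed the threshold and the largest was 0.201 on the log2 scale. That 1 came from the replicate block: Gpnmb row B in LPS_EV against control_EV at 0.106, adjusted p = 0.0454 by edgeR. Without the block its adjusted p by edgeR was 0.476, and from 0.123 to 0.834 with 1 library left out. The block was not fitted with a library left out. Whether the numbers pair the samples is not known. Against control_EV, deviations of same-numbered libraries correlated at 0.004 to 0.017 for LPS_EV, -0.126 to -0.014 for TGFB_EV and 0.022 to 0.1 for IL10_EV. Those of unlike numbers correlated at -0.028 to 0.011, -0.048 to 0.096 and -0.114 to 0.033. In these comparisons 4, 0 and 5 of 6 samples correlated best with their own number. The block raised the rows called for LPS_EV from 86 to 209 and for IL10_EV from 0 to 3.

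Rows called for LPS_EV were 165 with no filter and 0 in a fit of all 12 libraries, for TGFB_EV 17 with DESeq2, 111 with no filter and 0 with all 12, and for IL10_EV 1 with DESeq2 and 22 with no filter. With 1 library left out they ranged from 18 (without LPS_EV replicate 3) to 127 (without LPS_EV replicate 1), from 0 to 419 (without TGFB_EV replicate 3) and from 0 to 2.

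Signs changed in 24 of the 282, all near 0. Row B in TGFB_EV was -0.004 with the strict filter and -0.031 with the Gpnmb rows summed. The Ctsa row in LPS_EV against TGFB_EV was -0.002 with DESeq2 and -0.006 with no filter, and the Lamp1 row in TGFB_EV against IL10_EV -0.008 with no filter. With 1 library left out, ranges that crossed 0 were, against control_EV, -0.016 to 0.060 for the Ctsa row in LPS_EV, -0.021 to 0.054 in TGFB_EV and -0.075 to 0.003 in IL10_EV, and -0.054 to 0.054 for row B in TGFB_EV and -0.004 to 0.106 in IL10_EV. For LPS_EV against TGFB_EV it was -0.035 to 0.032 (Ctsa row), for LPS_EV against IL10_EV -0.017 to 0.088 (row A) and -0.002 to 0.110 (row B), and for TGFB_EV against IL10_EV -0.028 to 0.022 (Lamp1 row). The cause was not tested. Counting error of these rows is at most 0.430%, which leaves out what PCR adds.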

Other observations

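CPM by library total, per base of Gpnmb covered, differed widely between the 4 rows that met it. It was 31.0 in row A and 50.9 in row B, against 1.10 in the row labelled Gm7890 and 0.795 in the row labelled Igf2bp3, which also met Malsu1 and Igf2bp3. The covered lengths were 453, 193, 601 and 719 bases. Over 1 step more or less of displacement they ranged from 353 to 530 bases for row A and from 170 to 193 for row B. The Gm7890 row lies wholly in the last exon of Gpnmb-201, where row B also covers 90 bases. The cause of the difference was not tested.

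The Ctsa row had 3.15 CPM per base of Ctsa covered and the Lamp1 row 8.63 per base of Lamp1. The row labelled Ncoa5 had 0.0182 per base of Pltp.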
